A study of Mus musculus with 6 samples.

Results

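Heat-shock-high tumour cells are the keratin-positive cells of 4T1 mouse breast tumours that carry several transcripts of 3 heat shock genes, Hspa1a, Hspa1b and Dnajb1. A barcode was a member when it had at least 200 detected genes and at least 2 UMIs (unique molecular identifiers, each standing for 1 captured transcript) summed over the epithelial genes Krt8, Krt18, Krt7 and Epcam, and at least 3 UMIs summed over the 3 heat shock genes. Barcodes with more than 1 UMI of macrophage complement genes (C1qa, C1qb, C1qc) or of Cxcl5, Csf3 and Pthlh were left out. So were those with more than 2 UMIs of skin or mammary luminal genes (Krt5, Lgals7, Wfdc18, Prlr). The same limit of 2 held for the cell cycle genes Birc5, Ube2c, Ccna2, Cdc20, Top2a, Mki67, Cdk1 and Prc1. Members may thus carry a few of these transcripts. Of 6730 barcodes with at least 200 genes, 1688 met every limit other than the one on heat shock genes. Of these tumour cells, 481 were heat-shock-high and 1207, with at most 2 heat shock UMIs, were heat-shock-low. The heat shock genes were therefore high in the members by choice, and their values are given only as a description.

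The tumours were of 4T1, a murine breast cancer line, in Balb/c animals and were profiled by Drop-seq, which captures single cells in droplets with barcoded beads. There were 3 libraries of tumours given FVIO-MHT, mild magnetic hyperthermia with ferrimagnetic vortex nanorings, and 3 of tumours given PBS. For FVIO-MHT, nanorings were injected at 0.1 mg per cm3 of tumour and the mice were placed in an alternating field of 365 kHz for 10 min, with 24 h until collection. All 6 samples carry the same protocol text, so whether a field was also applied to the PBS tumours is unknown here. The labels do not say that the libraries came from separate mice, and p-values refer only to these libraries. Per the labels, fresh tissue was cut up and incubated with Liberase TL and DNase I before capture.

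The heat shock response is the cell's reaction to unfolded protein. Heat shock factor, mainly HSF1, binds repeated GAA and TTC letters in the promoters of chaperone genes. HSP70 proteins such as those of Hspa1a and Hspa1b then bind unfolded chains, J-domain proteins such as Dnajb1 and Dnaja1 deliver the chains to them, and HSP110 and HSP90 proteins act in the same cycle. The response is known to be switched on by heat and by other stress, including the handling of tissue.

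The libraries differed in ways that bear on every result. The libraries held between 678337 and 2207534 UMIs in all, and their kept barcodes a median of 400 to 834. FVIO-MHT replicate 1 had 0 tumour cells among 332 kept barcodes, which allows a share of up to 0.904% (3 cells), so it gives no value for tumour cells. PBS replicates 2 and 3 held 387 and 72 of the 481 members. These 2 libraries also shared 44 barcodes, while every other pair of libraries shared between 0 and 6. Of the shared barcodes, 33 had at least 200 genes in both libraries, and 32 of those 33 resembled their namesake in the other library more than they resembled the median of other barcodes, with a median of 58.2% of genes in common against 24.0%. Shared barcodes made up 4 members of PBS replicate 2 and 6 of PBS replicate 3. Values without them are given for the shares, the levels by class, the counts of calls and the steps at equal depth.

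The promoter letters of the chaperone genes are shown because these genes chose the cells or were called higher in them. Jun is shown as a called gene outside the chaperones that held a match. Only stretches with a match before the start site are printed, which leaves out Hspb8, with its match at base 3 after the start. They come from RefSeq promoter windows on GRCm38.p6, which run from 250 bases before to 50 bases after a start site. The windows were searched for the motifs GAANNTTC and TTCNNGAA, each of which reads the same on both strands. Capitals mark the matches, and each stretch is written 5′ to 3′ on the strand of its gene. Hspa1a lies on the minus strand (stretch at chr17:34972229-34972284), as does Hspa1b (chr17:34959311-34959366). Dnaja1 (chr4:40722320-40722375) and Hspe1 (chr1:55088035-55088100) lie on the plus strand, and Hsph1 (chr5:149636338-149636393) and Jun (chr4:95052319-95052374) on the minus strand.
Hspa1a: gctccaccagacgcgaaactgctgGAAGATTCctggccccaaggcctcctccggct
Hspa1b: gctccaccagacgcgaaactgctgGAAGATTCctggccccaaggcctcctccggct
Dnaja1: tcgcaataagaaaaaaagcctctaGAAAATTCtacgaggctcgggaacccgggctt
Hspe1: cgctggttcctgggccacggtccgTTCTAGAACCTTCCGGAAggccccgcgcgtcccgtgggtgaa
Hsph1: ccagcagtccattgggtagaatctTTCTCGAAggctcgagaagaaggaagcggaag
Jun: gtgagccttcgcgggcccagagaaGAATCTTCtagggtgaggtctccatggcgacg
Hspa1a and Hspa1b had the same letters here and were identical at 247 of the 250 bases before the start (98.8%). The stretch of Hspe1 holds 3 overlapping matches. Dnajb1, the third gene of the rule, has 2 windows and Hspa5 has 1, and none of these held a match. Of 27025 genes with a window, 17.0% held at least 1 of the motifs somewhere in it, and 9.04% and 9.60% held the first and the second.

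Among the members the summed heat shock count ran from 3 to 45 UMIs with a median of 7. It was 3 in 70 cells, 4 in 61, 5 to 9 in 198, 10 to 19 in 121 and 20 or more in 31. Just outside the limit stood 120 tumour cells with 2 heat shock UMIs, at a median depth of 942.5 UMIs, close to the 1017.5 UMIs of the 70 cells with 3. Hspa1b was detected in 471 members, Dnajb1 in 295 and Hspa1a in 71, and 288 held both Hspa1b and Dnajb1. Because Hspa1a and Hspa1b are near-identical copies, reads may have been split between them, and their separate values are uncertain.

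Hspa1b (ENSMUSG00000090877, chr17:34956436-34959238 on GRCm38) encodes an inducible HSP70. Its level in the members, in CPM (the gene's UMIs per 1000000 UMIs of the class in a library), was 1246 and 1014 in FVIO-MHT replicates 2 and 3 and 690, 3910 and 4276 in PBS replicates 1, 2 and 3. In the heat-shock-low cells of the same libraries it was 375, 102, 183, 801 and 723. Thus the low cells of PBS replicates 2 and 3 carried about as much as the members of PBS replicate 1. Dnajb1 (ENSMUSG00000005483, chr8:83608193-83612653), the J-domain partner of HSP70, stood at 302, 477, 1073, 1175 and 1018 CPM in the members, in the same order of libraries, and at 96.5, 52.9, 131, 149 and 98.6 in the low cells. As a gene of the rule its level in the members depends on the limit and on depth. Only 8, 7 and 7 members gave the values of FVIO-MHT replicates 2 and 3 and PBS replicate 1, where the highest heat shock count of a cell was 10, 6 and 4, against 45 and 33 in PBS replicates 2 and 3.

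The label of tumour cells was checked on 5 epithelial markers that the rule did not use: Krt19, Cldn4, Cldn7, Cdh1 and Spint2. All 5 were detected in the members of PBS replicates 2 and 3, with summed levels of 947 and 1223 CPM against 733 and 1052 in the low cells. In the 8, 7 and 7 members of the other libraries, 4, 5 and 3 of the 5 were detected, from 6, 17 and 10 UMIs. Krt8, a simple epithelial keratin, was at 1019, 1490, 1303, 1134 and 1069 CPM in the members of the 5 libraries and at 1673, 1376, 2090, 1321 and 1315 in the low cells, but it is a gene of the rule and these values are a description. Markers of other cells were present. In the members of PBS replicates 2 and 3 the 14 macrophage markers summed to 141 and 216 CPM, the 10 T and NK markers in the table to 1.44 and 82.2, and the 10 fibroblast markers to 76.2 and 236. Of the T and NK markers 1 and 2 were above 0, Cd3e among them in PBS replicate 3, while Cd3d, Cd3g, Cd4 and Cd8a were at 0 in both libraries.

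Mammary luminal markers summed to 308 and 1151 CPM in the members and to 332 and 953 in the low cells, and skin keratinocyte markers to 197 and 576 against 162 and 263. Neutrophil markers were at 38.8 and 411 against 59.6 and 230. The part of these markers in the results was not tested.

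The highest sum of markers of other cells came from antigen presentation genes. Cd74, the invariant chain of MHC class II, stood at 1841 and 2128 CPM in the members of PBS replicates 2 and 3 and at 2079 and 3551 in their low cells. As a result 230 of the 481 members (47.8%) held 3 or more UMIs of a set of 9 markers of other cells. Of the 1207 low cells 228 did (18.9%). In PBS replicates 2 and 3 the shares were 46.8% and 52.8% of members and 30.9% and 30.6% of low cells. These counts are not at equal depth, and by CPM Cd74 was lower in the members of both libraries. With Cd74 alone 217 of the 481 members and 146 of the 1207 low cells reached 3 UMIs. Without Cd74 in the set the number was 5 members (1.04%) and 74 low cells (6.13%). No doublet caller was run, and doublets were not removed.

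The share of tumour cells that were heat-shock-high separated 2 PBS libraries from the other 3 libraries. In FVIO-MHT replicate 2 it was 9.52% of 84 tumour cells, with an exact 95% Clopper-Pearson interval from 4.20 to 17.9%. In FVIO-MHT replicate 3 it was 0.964% of 726 (0.389 to 1.98%). It was 5.00% of 140 in PBS replicate 1 (2.03 to 10.0%), 61.4% of 630 in PBS replicate 2 (57.5 to 65.2%) and 66.7% of 108 in PBS replicate 3 (56.9 to 75.4%). PBS replicate 1 lay between the 2 FVIO-MHT libraries, so the groups overlapped. The FVIO-MHT mean was 5.24% ± 6.05 (SD, n = 2) and the PBS mean 44.4% ± 34.2 (SD, n = 3), a difference of -39.1 percentage points with a two-sided exact permutation p of 0.3. With 2 libraries against 3, no p below 0.1 can be reached. Without PBS replicate 1 the difference was -58.8 points, and without shared barcodes -39.6 points. Intervals cover counting error only.

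Depth differed between the classes. In the order FVIO-MHT replicates 2 and 3 and PBS replicates 1 to 3, the median member held 3019, 2970, 1651, 1566 and 1208 UMIs. The median low cell held 1137, 472, 1003, 780 and 711.5. When each tumour cell was thinned to 500 UMIs, with shallower cells left out, 0 of 71, 1 of 345, 1 of 121, 182 of 548 and 34 of 89 cells kept 3 heat shock UMIs. These are 0%, 0.290%, 0.826%, 33.2% and 38.2%. The count of 0 of 71 allows a share of up to 4.23% with 3 cells taken as the limit, and up to 5.06% by the Clopper-Pearson interval. Without shared barcodes the last 2 shares were 33.5% and 36.6%. At equal depth PBS replicates 2 and 3 thus still lay above the other 3 libraries, each of which had at most 1 such cell.

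**Figure D1:**
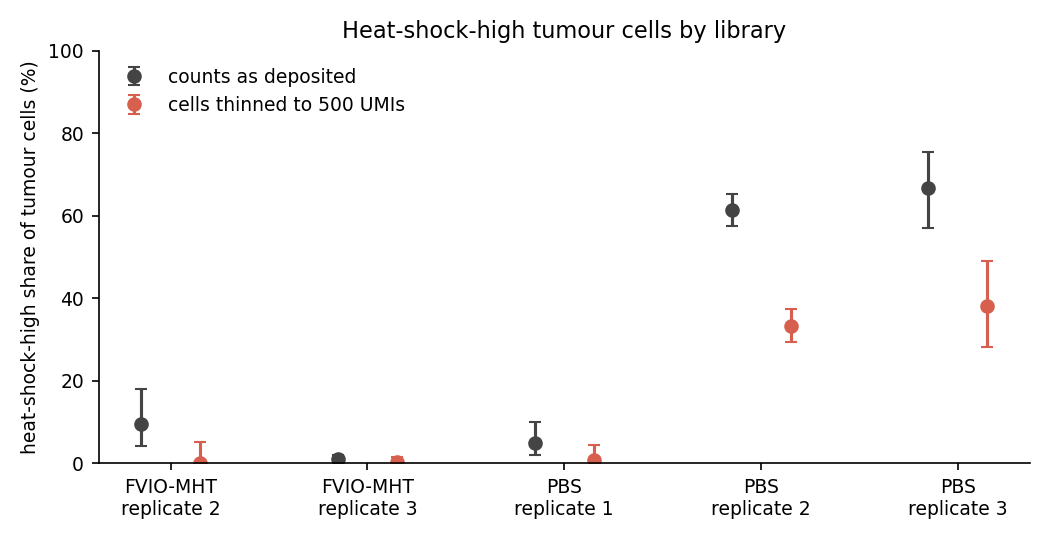
Heat-shock-high share of tumour cells (%, vertical axis) in the 5 libraries with tumour cells, for counts as deposited (grey) and for cells thinned to 500 UMIs (red), with 95% Clopper-Pearson intervals. PBS replicates 2 and 3 stand at 61.4% and 66.7%, and at 33.2% and 38.2% after thinning, above the other 3 libraries.

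The high heat shock level of PBS replicates 2 and 3 was not limited to tumour cells. Summed over Hspa1a, Hspa1b and Dnajb1, all tumour cells held 4150 and 4643 CPM in these 2 libraries, against 718, 218 and 434 in FVIO-MHT replicates 2 and 3 and PBS replicate 1. Barcodes with 3 or more C1q UMIs and at most 1 epithelial UMI, the class of macrophages, held 6356 and 2225 CPM against 261, 139 and 165. Barcodes with 5 or more UMIs of 3 collagen genes, the class of fibroblasts, held 12872 and 10161 against 550, 641 and 687. The split of PBS replicates 2 and 3 from the other 3 libraries was thus present in all these classes, while the order within each side differed. Without shared barcodes the levels of the 2 libraries were 4151 and 4618 in tumour cells, 6418 and 2225 in C1q cells and 12985 and 10675 in collagen cells.

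Barcodes under 100 genes, too few for the limit on cells, had the same split. They carried 3406 and 3403 CPM of the 3 genes in PBS replicates 2 and 3, and between 122 and 315 in the other 4 libraries. The share of cells with at least 3 heat shock UMIs was 70.6% of 85 C1q cells in PBS replicate 2 and 45.5% of 11 in PBS replicate 3, at median depths of 822 and 1258 UMIs, and at most 6.25% in any other library. The part of free RNA and of handling of the tissue in the members' heat shock counts was not tested. These classes of other barcodes were chosen after the data had been seen.

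**Figure D2:**
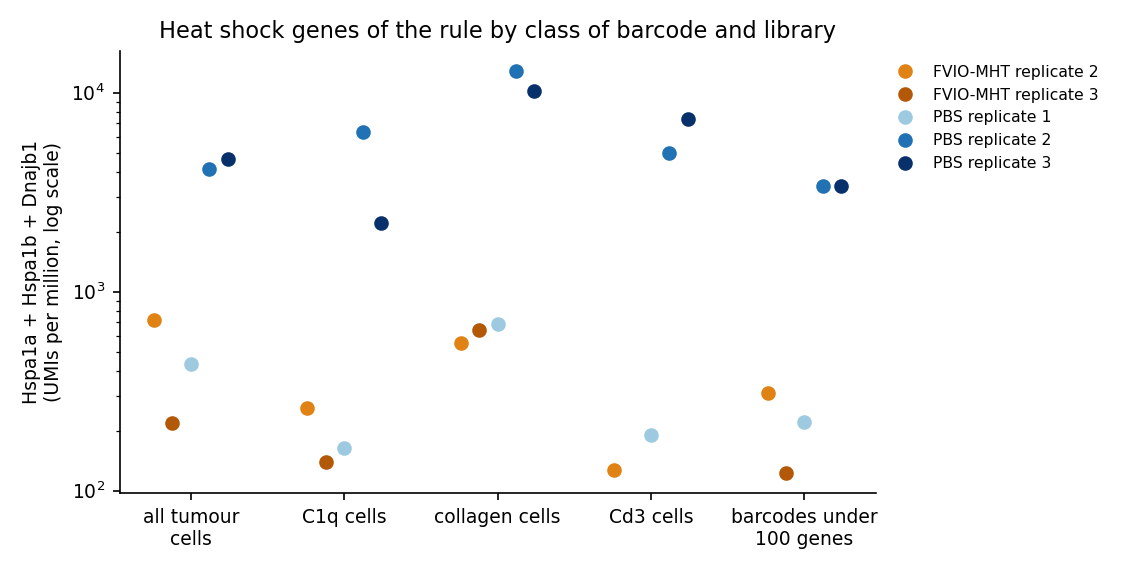
Summed level of Hspa1a, Hspa1b and Dnajb1 (CPM, log scale) in tumour cells, C1q cells, collagen cells, Cd3 cells and barcodes under 100 genes, 1 point per library with tumour cells. In each class PBS replicates 2 and 3 lie above the other libraries shown, at 3406 and 3403 in barcodes under 100 genes against at most 308. The Cd3 points of PBS replicates 2 and 3 rest on 4 and 8 cells, and FVIO-MHT replicate 3 has no Cd3 point.

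Genes that the rule did not use were then compared between the members and the heat-shock-low tumour cells of the same library. Only PBS replicates 2 and 3 had at least 10 cells of each class, so the fit rests on 4 sums of counts with 1 residual degree of freedom. Its p-values rest on how alike the difference was in these 2 libraries, with the spread pooled over genes by edgeR. Of 3381 genes tested outside the rule, 51 were higher (1.51% of genes tested) and 10 lower (0.296%) at an adjusted p under 0.05 in edgeR's quasi-likelihood test, together 1.8%, and 295 had an unadjusted p under 0.05. By CPM each of the 61 had the same direction in both libraries. The calls were made on these same 2 libraries, so agreement of direction was favoured in advance. With TMM scaling within 1 library, Gm42418, called lower, stood at 0.037 in PBS replicate 3 and the other 60 kept their direction. Members and low cells differed in depth, and the classes were drawn by count, so deeper cells entered the members more easily. With cells thinned to 500 UMIs, 1 of 1242 genes tested outside the rule passed, Atf3. When the classes too were drawn on the thinned counts, 2 of 1228 passed, Atf3 and Dnaja1. Of the 61 genes, 51 were tested in the first of these fits and 54 in the second, and 51 and 53 kept their direction. The higher calls tested in these fits had a median log2 fold change of 1.03 and 0.79, against 1.10 in the main fit. In the first of them the members of PBS replicate 2 summed to 185000 UMIs, against 695900 in the main fit. These fits draw on the same cells as the calls, so the kept direction and the size are only a description. Without cells holding 3 or more UMIs of other cell types, 0 of 1618 genes passed in edgeR (106 at an unadjusted p under 0.05). All 56 calls tested there kept their direction, again in cells that had entered the calls. The higher calls had a median log2 fold change of 1.12 there, and the members of PBS replicate 2 summed to 260700 UMIs. Without shared barcodes 67 of 3209 genes passed, 57 of them among the 61. The log2 fold changes of the 60 calls tested there moved by a median of 0.026 and at most 0.11.

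The partners of HSP70 moved in part. Of 17 tested members of a list of 22 HSP70 partners and co-chaperones, 2 were higher and 0 lower, with a median log2 fold change of 0.35, against 0.00 over all genes tested. Dnaja1 (chr4:40722150-40737149), a J-domain protein that brings substrates to HSP70, was at 2153 and 1809 CPM in the members of PBS replicates 2 and 3 and at 831 and 822 in the low cells. By point values it was higher in the members of the other 3 libraries as well, with 642, 358 and 1380 against 418, 339 and 472. Those members were only 8, 7 and 7 cells, and the gap in FVIO-MHT replicate 3 was small. Its log2 fold change was 1.36 ± 0.18 (SE; adjusted p = 3.4e-06 in edgeR).
Hsph1 (chr5:149614287-149636376), an HSP110 protein that releases nucleotide from HSP70, stood at 611 and 370 CPM against 162 and 230, a log2 fold change of 1.77 ± 0.28 (adjusted p = 9.3e-05 in edgeR). Its members lay above the low cells in both libraries, but in PBS replicate 3 the level of the low cells came from 7 UMIs. With TMM scaling within 1 library the log2 fold change was 2.03 in PBS replicate 2 and 1.00 in PBS replicate 3, a difference that was not tested.
Hspa8, the constitutive HSP70, stood at 408 and 319 against 213 and 296 CPM (log2 fold change 0.84 ± 0.27, adjusted p = 0.13 in edgeR), and the HSP40 protein Dnajb4 at 134 and 92.5 against 46.9 and 32.9 (1.55 ± 0.45, adjusted p = 0.068). Neither passed. Bag3, a partner of HSP70 and of small heat shock proteins, had a log2 fold change of 1.00 ± 0.42 with an adjusted p of 0.37.

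HSP90 and the small heat shock proteins gave 3 higher genes of 4 tested. Hsp90aa1 (chr12:110690605-110702728), the inducible cytosolic HSP90, was at 10612 and 6548 CPM in the members and at 6092 and 3879 in the low cells (log2 fold change 0.84 ± 0.11, adjusted p = 1.5e-06 in edgeR). In the other 3 libraries the members, only 8, 7 and 7 cells, stood at 3738, 3816 and 6132 against 3056, 3685 and 4507. By point values the members were thus higher in all 5 libraries, but the gap in FVIO-MHT replicate 3 was small and was not tested. Hsp90ab1, the constitutive cytosolic HSP90, changed less, with 12115 and 9898 against 8780 and 7726 CPM (0.48 ± 0.09, adjusted p = 0.0013). Hspb8, a small heat shock protein that works with Bag3, was at 503 and 463 against 179 and 164 (1.54 ± 0.27, adjusted p = 0.00044). Hspb1, another small heat shock protein, did not pass (log2 fold change 1.30 ± 0.43, adjusted p = 0.14).

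Of 5 tested mitochondrial chaperones 1 was higher: Hspe1 (chr1:55088132-55091307), the 10-kDa co-chaperonin, at 1334 and 771 against 524 and 329 CPM (log2 fold change 1.38 ± 0.22, adjusted p = 7.0e-05 in edgeR). Its partner Hspd1 had a log2 fold change of 0.67 ± 0.22 and an adjusted p of 0.13. Of 12 tested genes of endoplasmic reticulum stress and folding 1 was higher, the HSP70 of that compartment, Hspa5, at 3189 and 4492 against 2347 and 2926 CPM (0.57 ± 0.14, adjusted p = 0.012). The HSP90 of the same compartment, Hsp90b1, had a log2 fold change of -0.29 ± 0.12 and an adjusted p of 0.33. Of 13 tested subunits of the chaperonin CCT and prefoldin 0 passed, with a median of 0.13.

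Among the 51 genes higher in the members, 38 had a RefSeq promoter window, and 7 of these held a motif (18.4%, against 17.0% of all genes with a window). Of the 7 chaperones among them, 5 had a window and 4 held a motif: Dnaja1, Hspe1, Hsph1 and Hspb8. Outside the chaperones only Jun, Sgk1 and Igfbp5 held one. A longer form, with 3 alternating blocks of GAA and TTC each 2 bases apart, was in 2 of the 38 windows and in 0.662% of all. A match describes letters in the window and shows no binding.

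Among genes of protein clearance, Ubb, which encodes polyubiquitin, was at 2157 and 2590 CPM in the members against 1172 and 1644 in the low cells (log2 fold change 0.86 ± 0.16, adjusted p = 0.0011 in edgeR). Sqstm1, which links ubiquitinated cargo to autophagy, was at 1152 and 1038 against 571 and 690 (0.96 ± 0.21, adjusted p = 0.0040). Both stood higher in the members of each of these 2 libraries.

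Immediate early genes gave the largest number of calls of any list. Of 27 tested, 17 were higher and 0 lower, with a median log2 fold change of 0.96. Atf3 (chr1:191170296-191218039), a stress-induced transcription factor of the ATF family, was at 2203 and 1953 CPM in the members of PBS replicates 2 and 3 against 758 and 526 in the low cells. In FVIO-MHT replicates 2 and 3 and PBS replicate 1 it was at 831, 537 and 2376 in 8, 7 and 7 members against 247, 247 and 1055. By point values it was thus higher in the members of each of the 5 libraries. Its log2 fold change of 1.68 ± 0.19 had the lowest adjusted p of the 3381 genes, 9.4e-08 in edgeR.
Jun (chr4:95049034-95052222), an AP-1 subunit, was at 5445 and 5304 against 3208 and 1808 (1.10 ± 0.14, adjusted p = 2.4e-06 in edgeR), and its partner Fos at 2375 and 3351 against 1444 and 1118 (1.05 ± 0.17, adjusted p = 0.00012). In PBS replicate 1 both lay the other way, with Jun at 2223 in 7 members against 3662 in the low cells and Fos at 3449 against 4310.
Klf6, Ier3, Egr1, Jund, Fosb, Cyr61, Maff, Klf4, Junb, Ppp1r15a, Zfp36l1, Btg1, Btg2 and Dusp1 were the other genes of the list that were higher. Their log2 fold changes ran from 0.75 for Junb to 1.93 for Ppp1r15a.

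**Figure D3:**
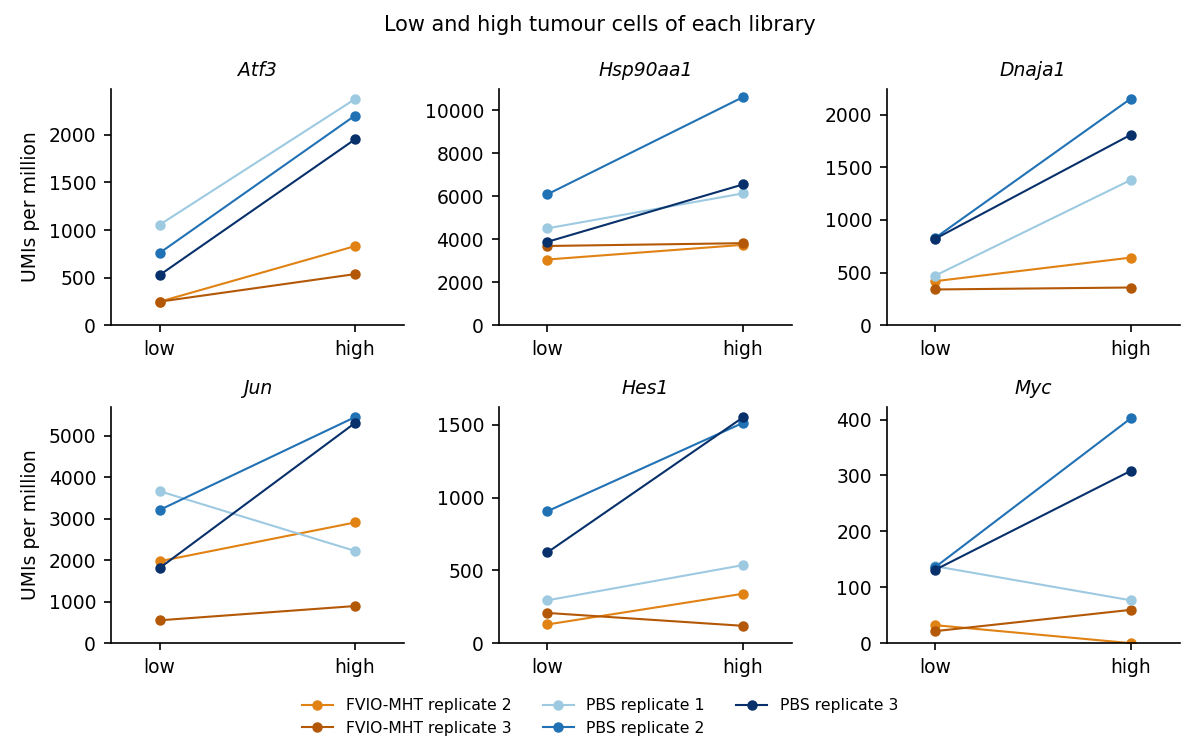
Level of 6 genes (CPM) in heat-shock-low and heat-shock-high tumour cells, 1 line per library. The lines of PBS replicates 2 and 3 rise for all 6 genes, while Jun falls in PBS replicate 1, Hes1 in FVIO-MHT replicate 3 and Myc in FVIO-MHT replicate 2 and PBS replicate 1. The high points of the other 3 libraries rest on 7 or 8 cells.

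Hes1 and Myc were given as markers of these cells. Hes1 (ENSMUSG00000022528, chr16:30064384-30067796) is a basic helix-loop-helix repressor and a classical target of Notch. It was at 1515 and 1552 CPM in the members of PBS replicates 2 and 3 and at 907 and 625 in the low cells, a log2 fold change of 0.94 ± 0.19 (adjusted p = 0.0021 in edgeR). In the members of FVIO-MHT replicates 2 and 3 and PBS replicate 1 it was at 340, 119 and 537, from 9, 2 and 7 UMIs, against 129, 208 and 295 in the low cells. The low cells of PBS replicates 2 and 3 thus held more Hes1 than the members of any other library.
Only 4 of the 23 genes of the Hes1 and Notch list were tested, and 2 were higher, Hes1 and Id3. Id3, an inhibitor of helix-loop-helix factors, was at 766 and 935 against 379 and 493 (1.05 ± 0.22, adjusted p = 0.0034). Myc (ENSMUSG00000022346, chr15:61985391-61990374), a transcription factor of growth genes, was at 402 and 308 CPM against 136 and 132 (1.56 ± 0.30, adjusted p = 0.0012). In the members of the other 3 libraries it had 0, 1 and 1 UMIs, too few for a comparison. Of 16 tested genes of the list on Myc and nucleolar genes, 1 was higher, Myc itself, and the median was 0.11. A count of 0 among the other 15 lies near the background of 1.51%.

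NF-kB targets and inflammatory genes formed the other list with many calls, 8 higher and 0 lower of 14 tested, with a median of 1.00. Nfkbia, the inhibitor that NF-kB induces against itself, was at 2426 and 1552 against 1057 and 1019 CPM (log2 fold change 1.09 ± 0.18, adjusted p = 0.00015 in edgeR). Tnfaip3, a ubiquitin-editing brake on NF-kB, was at 388 and 123 against 136 and 65.8 (1.51 ± 0.32, adjusted p = 0.0034), and the neutrophil attractant Cxcl1 at 1938 and 720 against 878 and 592 (1.02 ± 0.20, adjusted p = 0.0018). Nfkbiz, Cxcl10, Ccl2, Nfkb1 and Cxcl2 completed the 8. Of the metallothioneins, which bind metal ions, Mt1 was at 1959 and 2035 against 920 and 1348 (0.98 ± 0.18, adjusted p = 0.00046) and Mt2 at 1575 and 1932 against 763 and 1512 (0.86 ± 0.18, adjusted p = 0.0037).

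Other programmes gave 0 calls in either direction. These were genes of p53 and growth arrest (9 tested, median 0.72), apoptosis (6 tested, 0.30), the antioxidant response (12 tested, -0.02), glycolysis and hypoxia (20 tested, 0.05), epithelial identity outside the rule (14 tested, 0.37), MHC class I presentation (17 tested, 0.03), the type I interferon response (12 tested, -0.10), S phase (8 tested, 0.02), cytosolic ribosomal proteins (68 tested, 0.00), mitochondrially encoded genes (6 tested, -0.20) and splicing (21 tested, 0.19). Against the 1.51% called higher among all genes, a count of 0 in lists of this size lies near the background. All 9 tested genes of p53 and growth arrest had positive values.

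The 10 lower genes included 2 noncoding RNAs and several genes with few UMIs. Neat1, the RNA scaffold of paraspeckles, was at 290 and 319 CPM in the members against 826 and 559 in the low cells (log2 fold change -1.32 ± 0.23, adjusted p = 0.00024 in edgeR). Slpi, a secreted protease inhibitor, was at 481 and 637 against 903 and 1315 (-0.89 ± 0.20, adjusted p = 0.0062). S100a6, a calcium-binding protein, was at 5333 and 4656 against 6889 and 7463 (-0.44 ± 0.11, adjusted p = 0.021). Mmp12, a macrophage elastase, had 8 and 0 UMIs in the members against 15 and 5 in the low cells. Lars2, Clec2d, Lilr4b, Gm42418, Pttg1 and Mrpl54 were the others. The markers of macrophages were lower in the members as well, at 141 and 216 CPM against 209 and 559 for the list of 14, and their part in the lower Mmp12 and Lilr4b was not tested.

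**Figure D4:**
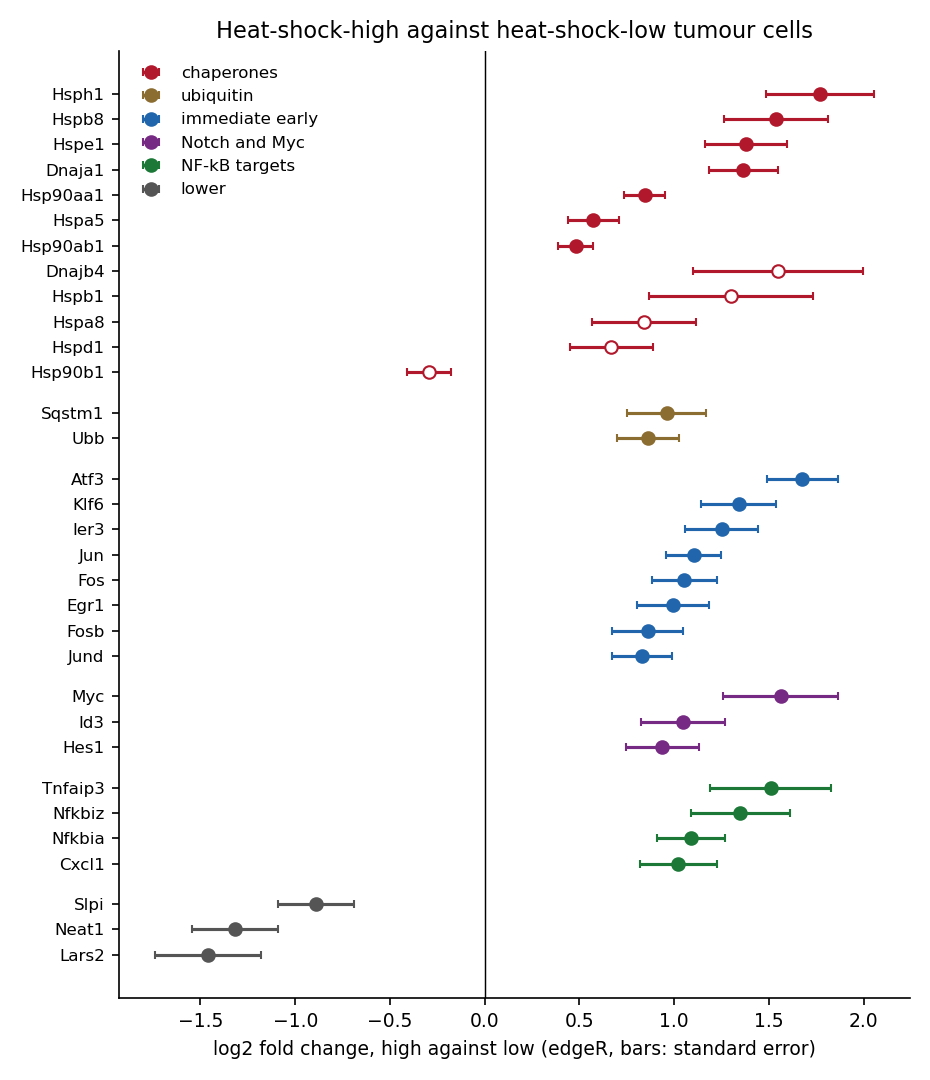
Log2 fold change of heat-shock-high against heat-shock-low tumour cells in PBS replicates 2 and 3 (edgeR, bars: standard error), by group of genes. Filled points have an adjusted p under 0.05 and open points do not; Hsph1 stands at 1.77, Hsp90ab1 at 0.48 and Neat1 at -1.32.

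At equal depth some companion genes stood higher at each step of the heat shock count and others did not. In PBS replicate 2, tumour cells thinned to 500 UMIs were divided by their thinned heat shock count into 145 cells with 0, 221 with 1 to 2, 113 with 3 to 4 and 69 with 5 or more. Dnaja1 was at 690 CPM in the first (95% Poisson interval 512 to 909), 1710 in the second, 2655 in the third and 3536 in the fourth (2937 to 4222). Hsp90aa1 went from 5641 through 8697 and 12106 to 14029, and Hes1 from 855 through 1276 and 1575 to 1942. Atf3 stood at 772, 1638, 2779 and 3043, with the last 2 steps inside each other's intervals. Myc stood at 152, 371, 513 and 435, Hspa8 at 303, 235, 389 and 551, and Hspb1 at 14 to 36 in the first 3 steps and 609 in the last. Genes outside the heat shock response differed too: Malat1, a nuclear noncoding RNA, was at 29186, 35900, 34743 and 42464. Krt18, a gene of the rule, was at 1614, 1946, 1805 and 2116.
PBS replicate 3 had 20, 35, 19 and 15 cells in these steps, so its upper 2 steps are thinly filled. There Dnaja1 was at 900, 1314, 2211 and 3333 CPM and Hes1 at 700, 914, 1263 and 2800. Both genes thus stood higher at every step in both libraries, by the point values. Myc was at 100, 229, 526 and 400, Malat1 at 35400, 24857, 25158 and 36267, and Krt18 at 1000, 2057, 1684 and 3733. Without shared barcodes Dnaja1 and Hes1 kept this order, from 699 to 3559 and 867 to 1882 in PBS replicate 2 and from 900 to 3846 and 700 to 3077 in PBS replicate 3. These steps are a description of cells within 1 library each, and the intervals cover counting error only.

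**Figure D5:**
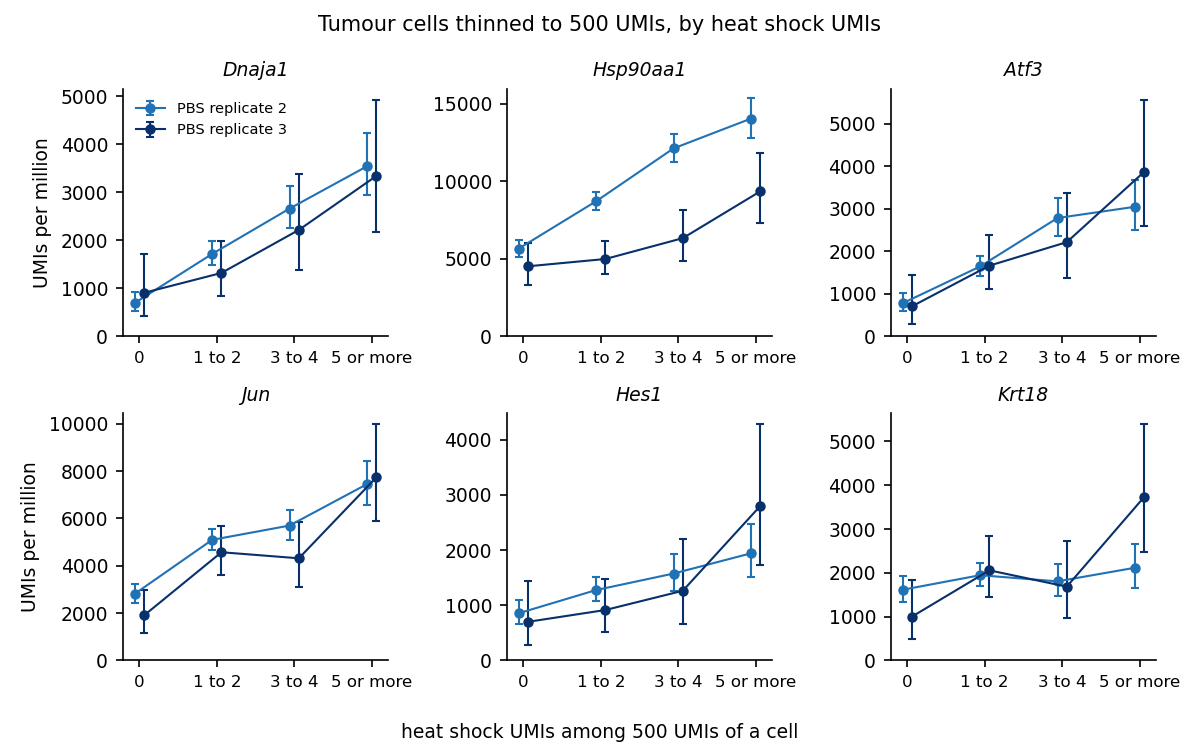
Level of 6 genes (CPM, bars: 95% Poisson intervals) in tumour cells of PBS replicates 2 and 3 thinned to 500 UMIs, by the number of heat shock UMIs among those 500. Dnaja1 goes from 690 to 3536 in PBS replicate 2 and from 900 to 3333 in PBS replicate 3, and Krt18 lies between 1614 and 2116 in PBS replicate 2 and between 1000 and 3733 in PBS replicate 3.

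Outside tumour cells some companion genes were also at higher levels beside the heat shock genes, with no test. In collagen cells of PBS replicate 3, the 22 with at least 3 heat shock UMIs held 7023 CPM of Hsp90aa1, 3388 of Dnaja1, 1725 of Hes1 and 5821 of Jun. The 10 others, with 8, 4, 4 and 8 UMIs, held 1212, 606, 606 and 1212. These collagen cells differed in depth, with medians of 1104 and 423.5 UMIs. In C1q cells of PBS replicate 2, the 60 with at least 3 heat shock UMIs held 6085 CPM of Hsp90aa1 and 878 of Hsph1, and the 25 others 3448 and 283. Dnaja1 differed little there, at 2209 against 2035, and Hes1 stood at 161 and 56.5, from 11 UMIs and 1. In barcodes under 100 genes, Dnaja1 was at 1663 and 1702 in PBS replicates 2 and 3 and between 211 and 550 in the other 4 libraries, and Hes1 at 486 and 425 against 17.3 to 122. So the higher Dnaja1 and Hes1 of these 2 libraries appeared in barcodes with few genes as well.

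To bring in the other libraries the limit was lowered to 2 heat shock UMIs, which left 22, 17, 15, 465 and 82 cells above it in FVIO-MHT replicates 2 and 3 and PBS replicates 1, 2 and 3. Of 1770 genes tested outside the rule in 5 libraries, 23 were higher (1.3%) and 1, Lars2, lower (0.0565%), and 22 of the 24 were also among the 61. Without shared barcodes 25 passed, 23 of them among the 61. All 51 of the earlier calls tested here kept their direction, but this fit includes PBS replicates 2 and 3, on which those calls were made. Atf3 (log2 fold change 1.54), Hsph1 (1.56), Dnaja1 (1.04), Hspe1 (0.99), Jun (0.87), Hes1 (0.86) and Hsp90aa1 (0.57) were among those that passed in edgeR, with adjusted p values between 4.6e-07 and 0.025. The 2 further genes were 1810011O10Rik and Adamts1. In the 3 libraries other than PBS replicates 2 and 3, a choice made after the data had been seen, 0 of 1161 genes passed in edgeR (58 at an unadjusted p under 0.05). There 38 of 46 earlier calls had the same direction, and the median log2 fold change of the 42 higher calls tested was 0.24, against 1.10 for all 51 in PBS replicates 2 and 3. Atf3 stood at 0.95, Hspe1 at 0.67, Dnaja1 at 0.43 and Hsp90aa1 at 0.31.

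Heat-shock-high cells could not be compared between treatments as defined, because no FVIO-MHT library had 10 of them. With the limit at 2 heat shock UMIs, 0 of 1020 genes outside the rule passed (0.0%) in edgeR's quasi-likelihood test of 2 FVIO-MHT against 3 PBS libraries, 122 had an unadjusted p under 0.05, and DESeq2 called 4. The adjusted p of the 4 genes that follow ran from 0.153 to 0.165. Without shared barcodes 0 of 1019 genes passed (118 at an unadjusted p under 0.05). Hes1 was at 214 and 118 CPM with FVIO-MHT and at 475, 1497 and 1470 with PBS, a log2 difference of -2.83 ± 0.62. Atf3 was at 621 and 433 against 1783, 2097 and 1899 (-1.90 ± 0.40), and Dnaja1 at 450 and 394 against 990, 2039 and 1785 (-2.01 ± 0.46). S100a6 was at 9856 and 19425 against 4952, 5354 and 4715 (1.46 ± 0.36). These 4 genes were chosen by low p, which favours genes whose groups do not overlap, and none passed the adjusted threshold. How many of the 1020 genes had groups without overlap was not counted. Without FVIO-MHT replicate 2 the count of calls was 29 and without FVIO-MHT replicate 3 it was 7, each with 1 library left in the FVIO-MHT group, which is then assumed to vary like the PBS libraries.

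The rule leaves out cycling tumour cells, with at least 3 UMIs of its cell cycle genes, and those with at least 2 of Cxcl5, Csf3 and Pthlh. Their heat shock counts were compared with the tumour cells that it keeps. Of cycling cells, 24.1% of 29, 4.03% of 248, 4.00% of 25 and 63.6% of 99 held at least 3 heat shock UMIs in FVIO-MHT replicates 2 and 3 and PBS replicates 1 and 2, against 9.52%, 0.964%, 5.00% and 61.4%. The mean difference was 4.72 percentage points ± 6.82 (SD, n = 4 libraries), higher in 3 of 4, with an exact sign-flip permutation p of 0.25, two-sided. With 4 libraries the test cannot go below 0.125. Cycling cells were deeper, with a median of 2265 against 1217 UMIs in PBS replicate 2, and after thinning to 500 UMIs the difference was -2.65 points. Without FVIO-MHT replicate 2 it was 1.43 points.

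Cells with at least 2 UMIs of Cxcl5, Csf3 and Pthlh, which encode secreted factors, held at least 3 heat shock UMIs in 21.4% of 28 in FVIO-MHT replicate 2, 10.1% of 69 in PBS replicate 1 and 92.6% of 27 in PBS replicate 2. The tumour cells that the rule keeps were at 9.52%, 5.00% and 61.4% in the same libraries. The mean difference of 16.1 percentage points ± 13.5 (SD, n = 3 libraries), higher in 3 of 3, had an exact sign-flip permutation p of 0.25, two-sided, the smallest that 3 libraries allow. After thinning it was 5.14 points, higher in 2 of 3, and without PBS replicate 2 it was 8.52 points.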

How the data were processed

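Drop-seq libraries of 3 FVIO-MHT and 3 PBS tumours were used. Each deposited matrix gives UMI counts, as whole numbers, for 5000 barcodes. The submitters' processing notes name STAR 2.7.2b and mm10. How reads were counted, with which annotation and strand setting, and how barcodes were chosen were not given in the sources used here. A total of 65 rows repeating a symbol with identical counts were dropped, leaving 27933 genes, of which 27624 matched GENCODE M21 (GRCm38) identifiers, the source of gene positions.

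The members and gene lists were chosen with earlier results of these data known. Counts were summed per library and class with at least 10 cells and tested with edgeR 4.0.16 (TMM, filterByExpr, library as a block for high against low, Benjamini-Hochberg adjusted p under 0.05 over all genes tested) in R 4.3.3. The 25 genes of the rule, 11 of which were tested, stayed in the fit and out of the counts of calls. Each SE is the absolute log2 fold change divided by the square root of edgeR's F statistic. Levels are CPM computed from these sums. No doublet caller was run. Shares were tested by exact permutation over libraries with at least 20 tumour cells (SciPy 1.17.1). Thinning drew 500 UMIs per cell without replacement.

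Named genes were Hes1 and Myc, the 12 of lowest p in each direction and up to 6 called members of each list for high against low, chaperones that did not pass where the text needs them, and the 8 of lowest p in each direction for FVIO-MHT against PBS. Other called genes are listed by name. The FVIO-MHT comparison could not be fitted at 3 heat shock UMIs and is given at 2. Alternatives were DESeq2 1.42.0, no filter, other limits on heat shock UMIs, genes and cells, thinning, removal of cells with other markers, and each library left out. The classing on thinned counts and the values without shared barcodes or without PBS replicates 2 and 3 were chosen after seeing the data. The fits were first tested on simulated counts with 200 changed genes. Of genes changed 2-fold, the main high against low fit found 12.5% and the FVIO-MHT fit at 2 heat shock UMIs 4.0%. High against low at 2 heat shock UMIs found 75.0%. Of genes changed 4-fold these fits found 83.0%, 81.5% and 100%. False calls numbered 0 to 11. Most 2-fold changes would thus be missed in the main and FVIO-MHT fits. Some genes of the lists are not reported here.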

Additional observations from a re-analysis of the deposited data

How the results depend on the processing

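The comparison of high with low tumour cells gave 61 calls of 3381 genes tested outside the rule. With no filter on low counts it gave 57 of 13002. At 5 heat shock UMIs, at 400 genes, without rule genes in the library sizes and without shared barcodes it gave 62 to 67 of 3011 to 3381. At 20 cells a class and in PBS libraries alone the same 4 sums enter, so those fits repeat the main fit. The comparison gave 12 of 3381 with DESeq2 (12 higher, 0 lower) and 24 of 1770 at 2 heat shock UMIs (25 of 1688 without shared barcodes). Against cells with 0 heat shock UMIs it gave 26 of 1906. It gave 1 of 1242 after thinning, 2 of 1228 after thinning with classes drawn on thinned counts, and 0 of 1618 without cells holding 3 or more UMIs of other cell types. At 2 heat shock UMIs without PBS replicates 2 and 3 it gave 0, and there 5 named genes changed sign: Neat1 (0.050), Sqstm1 (-0.041), Egr1 (-0.027), Cxcl1 (-0.27) and Mt1 (-0.0019), with adjusted p between 0.956 and 0.999 in edgeR. Gm42418 ranged from -0.82 without PBS replicate 3 to 0.037 without PBS replicate 2. The cause was not tested. Of 485 tested values of 40 named genes under alternatives with sums of their own, 248 kept direction and side of the threshold, 229 lost the threshold, 3 passed it anew and 5 changed sign. With no filter the median of all genes tested was 0.15.

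FVIO-MHT against PBS at 2 heat shock UMIs gave 0 calls, 4 with DESeq2, 6 with no filter, 89 at 20 cells a library, 103 without cells of other markers and 0 without shared barcodes. The fits with 89 and 103 calls also lose PBS replicate 1 and set 1 FVIO-MHT library, assumed to vary like the others, against PBS replicates 2 and 3. Leaving out 1 library gave 0 to 29. Replicate numbers pair nothing in the labels. With the replicate block it gave 0 calls in edgeR (98 at an unadjusted p under 0.05), and the share difference over the pairs of replicates 2 and 3 was -58.8 points (exact permutation p = 0.5). Without the library block, high against low gave 1 call, Atf3. Leaving out 1 library, the share difference ran from -58.8 to -28.0 points, the cycling difference from 1.43 to 6.63 and the secreting difference from 8.52 to 21.5. The cycling difference was -2.65 after thinning. Left with PBS replicate 2 or 3 alone, high against low has no residual degrees of freedom and gave values without a test. FVIO-MHT against PBS at 5 heat shock UMIs was not run for lack of cells.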
